A study of Mus musculus with 5 samples.

Results

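The genes described here encode 8 proteins of the sarcomere's M-band, of its myosin-binding machinery and of the complexes through which titin signals: Myom1, Myom2, Myom3, Mybpc3, Ankrd1, Ankrd23, Fhl1 and Fhl2. They were taken by symbol as a group of related proteins, with earlier results of these data known. All 8 were found among the 12446 listed genes of a bulk RNA sequencing study of adult mouse cardiomyocytes, and all 8 were among the 10901 genes tested. The study compared OSKM-CMs (3 libraries, replicates 1, 2 and 3) with Control-CMs (2 libraries, replicates 3 and 5). OSKM-CMs came from male C57BL/6 mice that received a mixture of 4 adeno-associated virus vectors. Oct4 was supplied by AAV-cTnT-Oct4-His6, Sox2 by AAV-cTnT-Sox2-Flag, Klf4 by AAV-cTnT-Klf4-HA and Myc by AAV-cTnT-Myc-V5, each factor with a peptide tag. Control-CMs came from mice of the same strain and sex that received AAV-cTnT-BFP, which encodes blue fluorescent protein. All mice were injected into the thoracic cavity at 8 weeks of age and are labelled as 12 to 14 weeks old. Expression from every vector was driven by the promoter of cardiac troponin T (cTnT), so the factors were directed to cardiomyocytes and the controls also carried a viral vector. Whether the libraries of a group represent different mice is not stated, and p-values therefore measure only the spread between these samples, which may be technical.

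The M-band lies at the middle of the sarcomere, where myomesins crosslink neighbouring myosin filaments and tie them to the tail end of titin. Myosin-binding protein C, encoded in the heart by Mybpc3, decorates part of each thick filament and regulates how myosin heads engage actin. In the elastic part of titin nearer the Z-disc, muscle ankyrin repeat proteins (Ankrd1 and Ankrd23) bind one region and four-and-a-half LIM domain proteins (Fhl1 and Fhl2) bind another. Proteins of both families are also found in the nucleus and are regarded as links between mechanical load and gene expression, and Ankrd1 is widely used as a marker of loaded or fetal-type myocardium.

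Levels are given as scaled RPKM, that is reads relative to gene length and library size, rescaled between libraries by the trimmed mean of M values (TMM). Reads over the listed genes ranged from 2691796 to 3861805 per library. Pou5f1, the gene of Oct4, and Sox2 had 0 reads in both controls and 254 to 391 reads in OSKM-CMs. Mitochondrial transcripts made up 21.2% and 24.7% of the reads of the controls but 9.76% to 11.1% in OSKM-CMs. All 9 cardiomyocyte markers examined were read in every library. Their summed level was 13392 to 14617 scaled RPKM in OSKM-CMs and 25399 and 28320 in controls. Of the 9, 8 were lower and Actn2 was not called, beside 14.4% lower and 15.7% higher among all genes tested. With library totals alone as the scale, 5 were lower and 1, Actn2, was higher, beside 5.96% lower and 36.5% higher among all genes. In bulk RNA, fewer cells of a type and less RNA per cell cannot be told apart.

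The 250 bases before the annotated start were taken from RefSeq (GRCm38.p6) for the 5 genes that passed the test, to show what lies next to genes that rose and a gene that fell. The 7 genes with a window had 10 windows in all, and for Fhl1 and Fhl2, which have more than one annotated start, the window printed is the first by coordinate. Capitals mark matches, on either strand, to any of the motifs searched. For muscle regulators these were M-CAT, the TEAD element (CATTCC), the GATA motif read by cardiac GATA factors (AGATAA), the CArG box and the MEF2 site. For the delivered factors they were the E-box preferred by MYC (CACGTG), the core shared by many KLF motifs (GGGTG), the core of the octamer element bound by Oct4 (ATGCAAA) and the core read by SOX proteins (ACAAT). Matches to different motifs were counted separately where they adjoin.
Ankrd1, chr19:36119845-36120094, minus strand: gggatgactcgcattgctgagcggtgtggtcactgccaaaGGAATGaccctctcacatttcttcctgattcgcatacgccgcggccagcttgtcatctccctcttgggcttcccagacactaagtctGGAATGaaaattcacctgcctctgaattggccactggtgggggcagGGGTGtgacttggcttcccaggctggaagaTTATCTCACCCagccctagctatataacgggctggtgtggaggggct
Fhl1, chrX:56779433-56779682, plus strand: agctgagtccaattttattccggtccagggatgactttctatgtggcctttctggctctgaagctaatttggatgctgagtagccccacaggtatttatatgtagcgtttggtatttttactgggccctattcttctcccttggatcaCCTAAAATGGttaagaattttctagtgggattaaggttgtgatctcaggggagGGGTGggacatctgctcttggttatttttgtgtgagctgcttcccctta
Myom3, chr4:135759465-135759714, plus strand: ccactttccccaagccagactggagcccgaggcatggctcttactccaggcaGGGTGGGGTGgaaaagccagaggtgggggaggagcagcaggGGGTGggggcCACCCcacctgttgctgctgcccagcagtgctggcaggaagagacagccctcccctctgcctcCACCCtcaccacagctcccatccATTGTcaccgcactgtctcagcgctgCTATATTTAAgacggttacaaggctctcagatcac
Mybpc3, chr2:91117894-91118143, plus strand: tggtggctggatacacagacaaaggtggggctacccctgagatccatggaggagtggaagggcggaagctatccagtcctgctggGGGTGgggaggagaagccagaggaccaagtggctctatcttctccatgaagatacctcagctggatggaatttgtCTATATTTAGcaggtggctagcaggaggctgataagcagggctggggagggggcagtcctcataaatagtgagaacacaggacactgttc
Fhl2, chr1:43163962-43164211, minus strand: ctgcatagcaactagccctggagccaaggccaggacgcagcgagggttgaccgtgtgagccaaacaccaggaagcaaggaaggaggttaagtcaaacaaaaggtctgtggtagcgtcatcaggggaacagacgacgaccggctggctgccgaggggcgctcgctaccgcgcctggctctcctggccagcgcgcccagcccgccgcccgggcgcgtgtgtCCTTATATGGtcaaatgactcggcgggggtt

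The Ankrd1 window held the M-CAT letters at 2 positions, both on the opposite strand, and one GATA match directly followed by a KLF match. The CArG box, the letters recognised by serum response factor, occurred in windows of 3 of the 7 genes (Myom1, Fhl1 and Fhl2) and in 1.47% of all 32851 windows of the same length. The MEF2 site also occurred in windows of 3 genes (Myom3, Mybpc3 and the other start of Fhl2), against 2.92% of all windows. In Myom3 and Mybpc3 its matches were CTATATTTAA and CTATATTTAG. M-CAT letters were found for 2 genes (Ankrd1 and Ankrd23) and in 12.6% of all windows. The MYC E-box and the octamer core were in no window of the 7 genes, against 6.02% and 4.12% of all windows. The KLF letters were in windows of 6 genes against 52.0%, and the SOX letters in that of Myom3 alone against 27.7%. GATA letters were in windows of 4 genes (Myom1, Ankrd1, Ankrd23 and Fhl2), against 9.99% of all windows. Windows with a CArG box thus belonged to a gene that rose, a gene that fell and a gene that did not pass. The shares are per window, whereas Ankrd23, Fhl1 and Fhl2 had more than 1 window each and so more than 1 opportunity for a match. Counted by window, the 10 windows held the CArG box in 4, the MEF2 site in 3 and M-CAT in 2. GATA letters were in 4 of the 10, KLF letters in 8 and SOX letters in 1. A match is a description of letters and not a binding site.

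Across the 8 genes, 4 rose in OSKM-CMs, 1 fell and 3 did not pass (limma, Benjamini-Hochberg adjusted p below 0.05 over all genes tested). Of all genes tested, 15.7% rose and 14.4% fell, so 52.3% of called genes were higher. The median log2 fold change was 0.47 over the 8 genes and 0.02 over all tested genes. All OSKM-CMs libraries lay above both controls for 5 of the genes, below both for 2, and overlapped them for 1. Among all tested genes, 29.8% lay above and 28.1% below, so that the groups of 57.9% did not overlap. When libraries were instead scaled by their totals alone, the median over all genes was 0.36, and this made 36.5% of genes higher and 5.96% lower, so that 86.0% of called genes were higher. Under those totals 5 of the 8 rose, with Myom1 added, and 1 fell. The authors' deposited table listed 4 of the 8 as higher and 1 as lower at an FDR below 0.05, where it listed 16.4% of its genes as higher and 15.4% as lower.

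**Figure D1:**
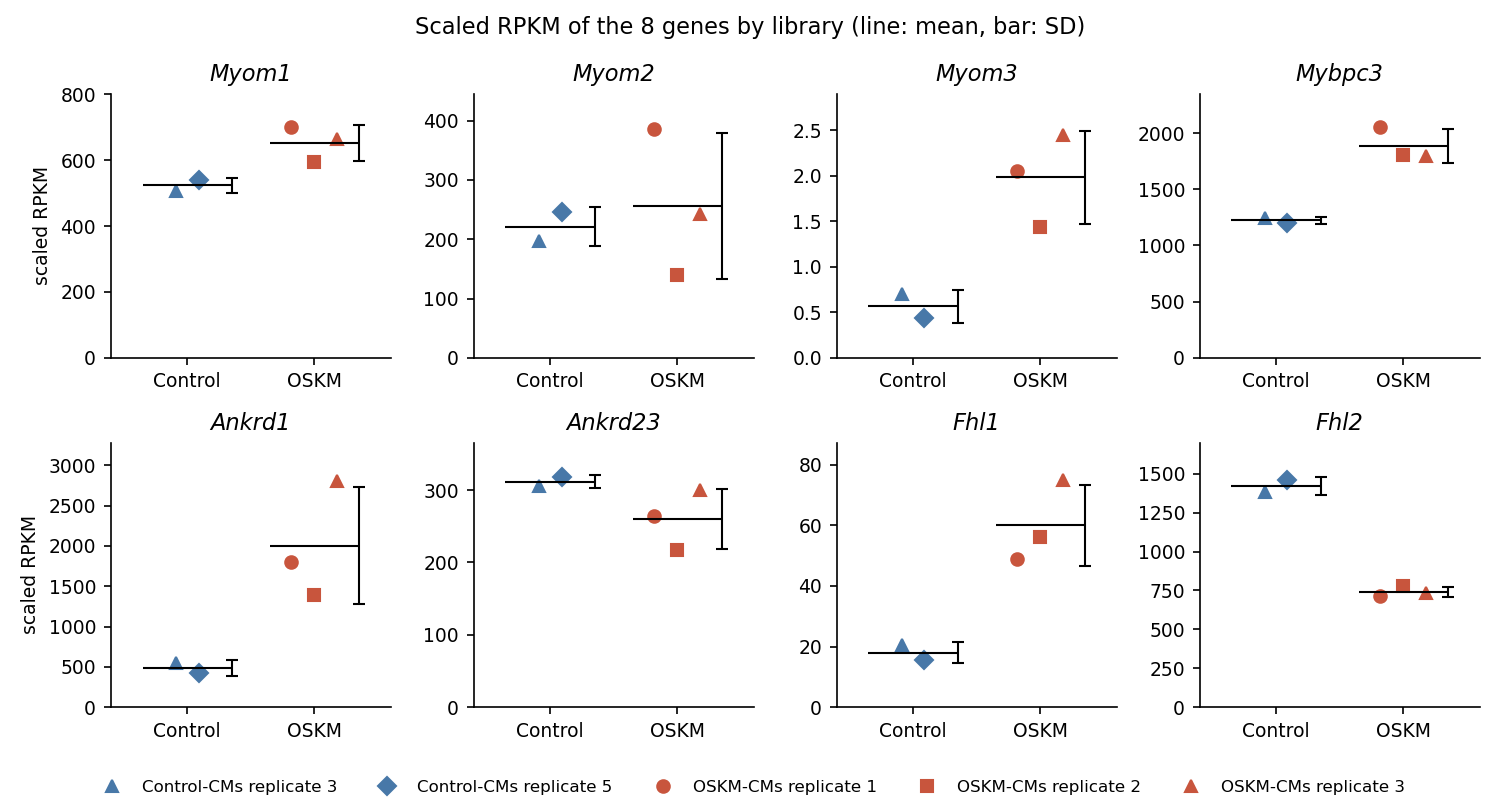
Scaled RPKM of each of the 8 genes (vertical axes, starting at 0) in 2 Control-CMs and 3 OSKM-CMs libraries, with a symbol for each replicate, a line at the group mean and a bar for its SD. Ankrd1, Fhl1, Mybpc3, Myom3 and Myom1 lie higher in every OSKM library than in either control, Fhl2 and Ankrd23 lie lower in every one, and Myom2 spreads from 140 to 385 in OSKM-CMs.

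Ankrd1 (ENSMUSG00000024803.8) had the largest change. This ankyrin repeat protein of the titin spring region had 552 and 417 scaled RPKM in Control-CMs replicates 3 and 5. It had 1805, 1396 and 2809 in OSKM-CMs replicates 1, 2 and 3. Every OSKM library exceeded both controls, and replicate 3 stood highest. The mean rose 4.14-fold, from 484 ± 95.1 (SD, n = 2) to 2003 ± 727 (SD, n = 3), a log2 fold change of 2.00 (SE 0.30, 95% interval 1.28 to 2.72, limma adjusted p = 0.00433). By level it moved from rank 97 and 148 among all listed genes in the controls to rank 24, 32 and 17 in OSKM-CMs.

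Ankrd23 (ENSMUSG00000067653.5), the ankyrin repeat relative that binds the same titin region, did not share that rise. It had 305 and 318 scaled RPKM in Control-CMs replicates 3 and 5 and 264, 217 and 299.8 in OSKM-CMs replicates 1, 2 and 3. The OSKM libraries were all lower than the controls, although replicate 3 came close to the lower control. The difference did not pass (log2 fold change -0.27, 95% interval -0.62 to 0.07, limma adjusted p = 0.202), and its sign turned with library totals alone (0.15, limma adjusted p = 0.447). A ratio taken inside one library does not depend on scaling between libraries. The ratio of Ankrd1 to Ankrd23 was 1.81 and 1.31 in the controls and 6.85, 6.44 and 9.37 in OSKM-CMs replicates 1, 2 and 3. That was 4.84-fold higher by geometric means, with no overlap between groups (exact permutation p = 0.1, 2-sided, the smallest that 2 against 3 libraries allow). Ankrd2, the remaining gene of this ankyrin repeat family, was not analysed here.

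The FHL genes moved in opposite directions. Fhl1 (ENSMUSG00000023092.9), a LIM domain protein abundant in skeletal muscle and induced in hypertrophic heart, had 20.4 and 15.6 scaled RPKM in Control-CMs replicates 3 and 5. It had 49.0, 56.0 and 74.9 in OSKM-CMs replicates 1, 2 and 3. All 3 OSKM libraries were well above the controls. The rise was 3.34-fold, from 17.97 ± 3.39 (SD, n = 2) to 60.0 ± 13.4 (SD, n = 3), with a log2 fold change of 1.67 (SE 0.20, limma adjusted p = 0.0012).

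Fhl2 (ENSMUSG00000008136.8), the LIM domain protein most typical of the heart, had 1383 and 1463 scaled RPKM in Control-CMs replicates 3 and 5. It fell to 715, 777 and 735 in OSKM-CMs replicates 1, 2 and 3. The OSKM libraries were closely spaced and all lay far below the controls. The mean went from 1423 ± 57.0 (SD, n = 2) to 742 ± 31.4 (SD, n = 3), 1.92-fold lower (log2 fold change -0.94, SE 0.10, limma adjusted p = 0.000832). The ratio of Fhl1 to Fhl2 was 0.0147 and 0.0106 in the controls and 0.0685, 0.0721 and 0.102 in OSKM-CMs replicates 1, 2 and 3, which was 6.36-fold higher by geometric means (exact permutation p = 0.1, the smallest possible). Fhl2 transcripts still outnumbered Fhl1 transcripts per length in every library.

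**Figure D2:**
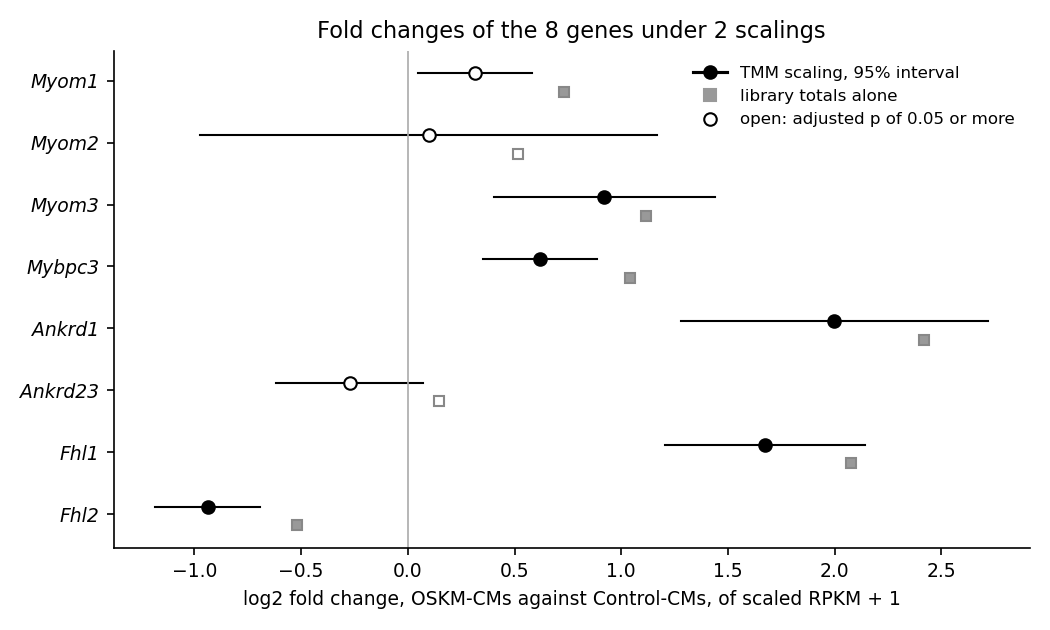
Log2 fold change of each gene, OSKM-CMs against Control-CMs, on the scale of log2 of scaled RPKM plus 1. Circles with 95% intervals use TMM scaling and squares use library totals alone, and open symbols did not pass an adjusted p of 0.05. Totals alone shift every gene to the right, Myom1 then passes, and Ankrd23 changes from -0.27 to 0.15.

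Markers of other cell types were examined beside these results, since ankyrin repeat and LIM domain genes are not restricted to cardiomyocytes. For this list and those that follow, the shares over all genes tested were 15.7% higher and 14.4% lower. Of 8 fibroblast markers tested, 4 rose (Col1a1, Col1a2, Col3a1 and Postn) and 0 fell. The other 4 (Dcn, Lum, Pdgfra and Dpt) were not called, and each overlapped between groups. The summed level of the list was 92.0 to 207 scaled RPKM in OSKM-CMs and 37.9 and 74.9 in controls. Of 8 mural and smooth muscle markers, 2 rose (Acta2 and Pdgfrb) and 1 fell (Abcc9), and their summed level was 242 to 381 against 222 and 229. Acta2 alone carried the higher sum, since the other 7 summed to 62.4 to 101 in OSKM-CMs and to 176 and 159 in Control-CMs replicates 3 and 5. Much of that lower sum lay in Abcc9, with 81.9 and 79.6 scaled RPKM in Control-CMs replicates 3 and 5. Abcc9 had 13.8, 16.6 and 12.1 in OSKM-CMs replicates 1, 2 and 3. The remaining markers of this list, apart from Pdgfrb, were not called, so the lower sum does not describe the list as a whole. The summed level of 8 endothelial markers was 36.4 to 76.2 in OSKM-CMs and 87.0 and 112 in controls, with Kdr and Egfl7 lower. Of the 5 macrophage and leukocyte markers listed, 4 were tested and none was called. None of the fibroblast, endothelial or mural markers was at 0 in any library, whereas Ptprc, which marks leukocytes, was at 0 in OSKM-CMs replicate 2. Of 11 skeletal muscle markers, 2 were among the listed genes. Neb had a level of 1.31 ± 0.279 (SD, n = 2) scaled RPKM in the controls, against 0.925 ± 0.325 (SD, n = 3) in OSKM-CMs, and Mylpf had 0 reads in both controls and 4, 4 and 3 reads in OSKM-CMs replicates 1, 2 and 3. A count of 0 allows up to 3 reads, or 0.852 and 0.777 CPM (reads relative to library size) in these libraries, for counting error only. Of 6 atrial cardiomyocyte markers, 3 were among the listed genes and were tested, and 2 rose. Myl7, the atrial myosin light chain, rose 6.17-fold (limma adjusted p = 0.00858) and Nppa, atrial natriuretic peptide, 3.51-fold (limma adjusted p = 0.000972). The fold of Myl7 is imprecise, with 25 and 8 reads (13.8 and 4.45 scaled RPKM) in Control-CMs replicates 3 and 5. Its log2 fold change had a 95% interval of 1.57 to 3.74. Myl4 overlapped between groups and was not called (limma adjusted p = 0.545). The summed level of that list was 101 to 130.2 in OSKM-CMs and 24.4 and 30.3 in controls. The marker genes named were singled out after their values were seen. The part of other cell types, or of atrial cells, in the changes of Ankrd1, Fhl1 and Fhl2 was not tested.

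Mybpc3 (ENSMUSG00000002100.8), the cardiac myosin-binding protein C, rose moderately from a high level. It had 1246 and 1203 scaled RPKM in Control-CMs replicates 3 and 5 and 2057, 1808 and 1792 in OSKM-CMs replicates 1, 2 and 3. The groups were clearly separate. The rise was 1.54-fold, from 1224 ± 30.1 (SD, n = 2) to 1885 ± 149 (SD, n = 3), with a log2 fold change of 0.62 (SE 0.11, limma adjusted p = 0.00614). Its partner on the thick filament is the myosin heavy chain, which in mouse ventricle is mostly the alpha form (Myh6) with little of the beta form (Myh7). Myh6 fell by 1.31 on the log2 scale (limma adjusted p = 0.00339) while Myh7 rose by 4.89 (limma adjusted p = 0.000698). Relative to the sum of both, Mybpc3 stood at 0.277 and 0.239 in the controls and at 0.570, 0.537 and 0.592 in OSKM-CMs replicates 1, 2 and 3. This ratio was 2.20-fold higher by geometric means and was the least variable of the ratios computed (exact permutation p = 0.1, the smallest possible).

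The myomesins differed among themselves in level and in spread. Myom1 (ENSMUSG00000024049.7), the myomesin of all striated muscle, had 508 and 539 scaled RPKM in Control-CMs replicates 3 and 5 and 700.0, 593 and 663 in OSKM-CMs replicates 1, 2 and 3. All OSKM libraries were above both controls, by a small margin for replicate 2. The log2 fold change of 0.31 (SE 0.12, 95% interval 0.05 to 0.58) did not pass (limma adjusted p = 0.0765). Its call was sensitive to the fit: it passed with library totals alone (0.73, limma adjusted p = 0.00122), with voom on reads recovered from the RPKM (0.31, limma adjusted p = 0.0451) and without OSKM-CMs replicate 2 (0.37, limma adjusted p = 0.035). In GENCODE M21 the Myom1 gene overlaps, by 246 bases, Myl12a, a myosin regulatory light chain gene on the other strand. That neighbour, listed as 2900073G15Rik, had 185 ± 9.18 (SD, n = 2) scaled RPKM without the factors and 207 ± 16.6 (SD, n = 3) with them, and was not called (limma adjusted p = 0.319). The strand setting of the read counting is not given in the sources used here.

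Myom2 (ENSMUSG00000031461.4), the M-protein of adult fast and ventricular muscle, was the least reproducible of the 8. It had 198 and 245 scaled RPKM in Control-CMs replicates 3 and 5 and 385, 140 and 242 in OSKM-CMs replicates 1, 2 and 3. One OSKM library lay above both controls, one below both and one between them. The log2 fold change was 0.10 with a 95% interval from -0.97 to 1.17 (limma adjusted p = 0.884), an interval that leaves room for a change in either direction. Without OSKM-CMs replicate 1 the value was -0.25 (limma adjusted p = 0.548). The coefficient of variation among OSKM libraries was 48.1%, larger than in 95.6% of tested genes, where the median was 13.6%. These were well-read values, with 10454, 3859 and 6545 reads in the OSKM libraries.

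Myom3 (ENSMUSG00000037139.9), the myomesin typical of intermediate skeletal fibres, was nearly silent in the controls. It had 13 and 8 reads in Control-CMs replicates 3 and 5 and 38, 27 and 45 in OSKM-CMs replicates 1, 2 and 3. In scaled RPKM this was 0.696 and 0.433 for the controls against 2.06, 1.44 and 2.45 for OSKM-CMs. All OSKM libraries were higher than both controls, but every value rested on few reads. The mean went from 0.565 ± 0.187 (SD, n = 2) to 1.98 ± 0.506 (SD, n = 3), 3.51-fold. On the log2 scale with 1 added, which understates changes at such low levels, the rise was 0.92 (SE 0.22, limma adjusted p = 0.0183). It did not pass without Control-CMs replicate 5 (limma adjusted p = 0.0833), without OSKM-CMs replicate 1 (0.0656) or without OSKM-CMs replicate 3 (0.0651). In the authors' deposited table its log2 fold change was 1.77.

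Together the myomesins summed to 706 and 785 scaled RPKM in the controls and to 1088, 735 and 908 in OSKM-CMs replicates 1, 2 and 3, which overlapped. Myom1 made up 71.9% and 68.7% of that sum in the controls and 64.4%, 80.7% and 73.1% in OSKM-CMs. Myom3 stayed the smallest part in every library, at 0.0986% and 0.0551% in controls and 0.189%, 0.196% and 0.269% in OSKM-CMs. The Myom1 to Myom2 ratio overlapped between groups (exact permutation p = 0.7). Myom3 was higher relative to Myom1, 2.84-fold, and relative to Myom2, 3.29-fold (exact permutation p = 0.1 each, the smallest possible). With 1 added to each level, which weighs on a gene as low as Myom3, the log2 difference went from 1.505 to 0.61 relative to Myom1 (exact permutation p = 0.1) and from 1.72 to 0.82 relative to Myom2 (exact permutation p = 0.3). Relative to titin, the M-band anchor of these proteins, the sum was 2.61 and 2.84 in the controls and 5.44, 3.97 and 5.84 in OSKM-CMs. This ratio was 1.84-fold higher by geometric means without overlap (exact permutation p = 0.1). Over the 7 ratios computed, 6 had the smallest p, which adjusted to 0.117, so no ratio passed 0.05 in a design of this size.

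**Figure D3:**
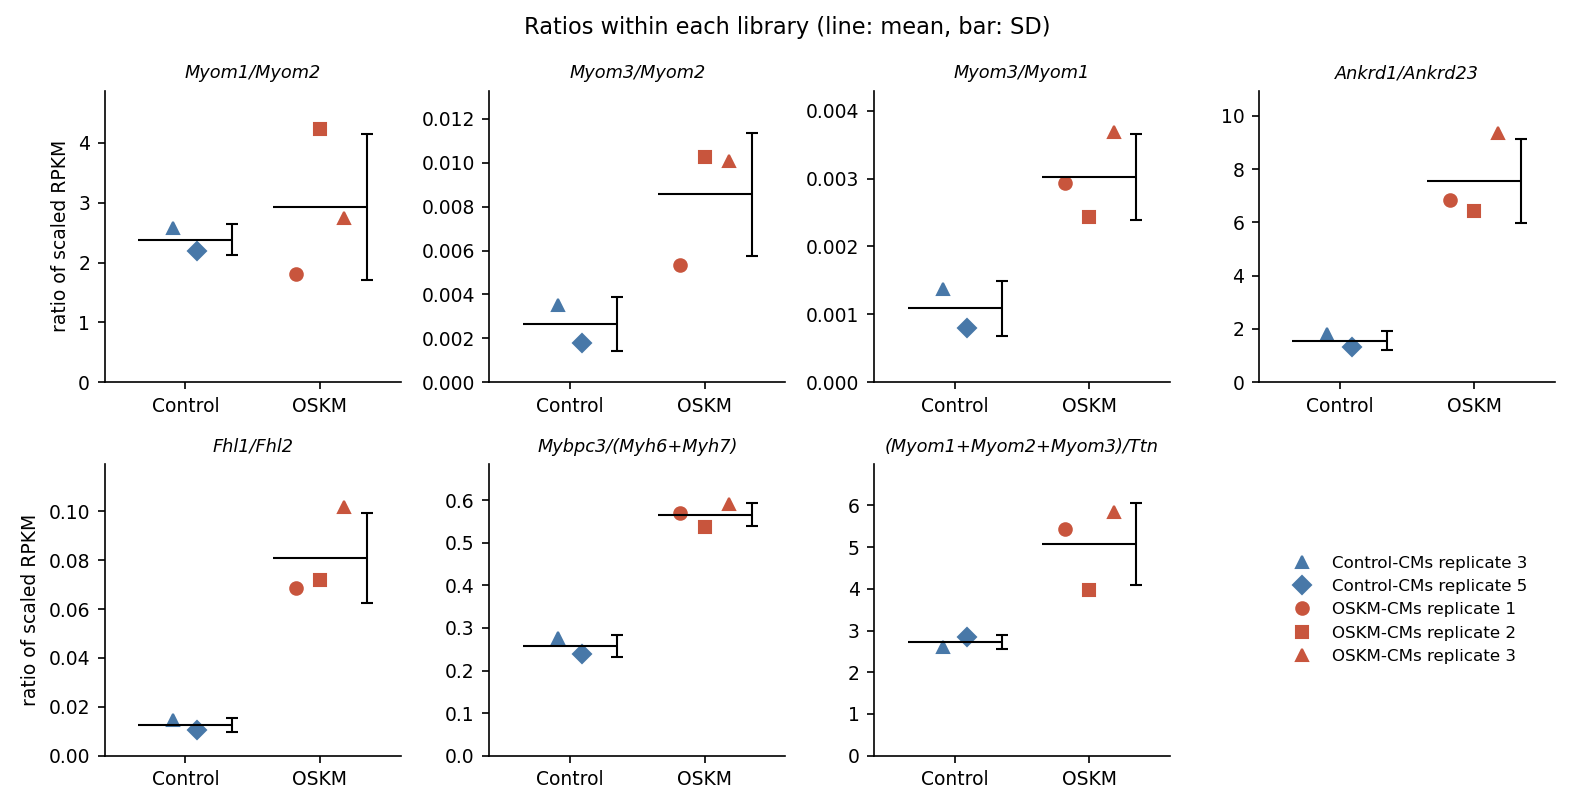
Ratios of scaled RPKM within each library (vertical axes, starting at 0), with a symbol for each replicate, a line at the group mean and a bar for its SD. In 6 of the 7 panels every OSKM-CMs library lies above both controls, and Mybpc3 over the summed myosin heavy chains goes from 0.258 to 0.566 on average with little spread.

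The order of the genes by level changed between the groups. In both controls Fhl2 was the most abundant of the 8 per length, followed by Mybpc3. In all 3 OSKM libraries Fhl2 ranked below both Mybpc3 and Ankrd1. Mybpc3 led in OSKM-CMs replicates 1 and 2 and Ankrd1 in replicate 3, so the order of that pair did not hold beyond the spread. Myom1 and Ankrd1 likewise changed places between the controls, as did Myom2 and Ankrd23 among the OSKM libraries. Fhl1 and Myom3 were the lowest in every library. In Control-CMs replicates 3 and 5, Fhl1 had 20.4 and 15.6 scaled RPKM against 198 and 245 for Myom2, the next gene. The distance was smaller in OSKM-CMs replicate 2, where Fhl1 had 56.0 and Myom2 140. Fhl2 and Myom1 kept their order in every library, by a narrow margin in OSKM-CMs replicate 1. Among OSKM libraries, replicate 3 had the highest value of 4 genes (Ankrd1, Ankrd23, Fhl1 and Myom3), replicate 1 of 3 (Myom1, Myom2 and Mybpc3) and replicate 2 of Fhl2.

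**Figure D4:**
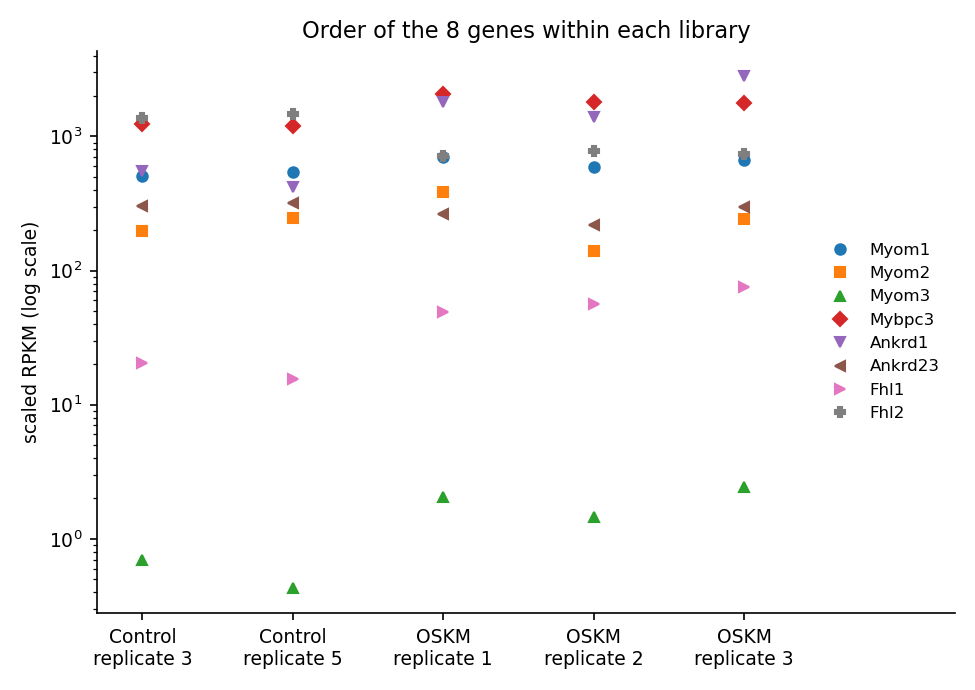
Scaled RPKM of the 8 genes (vertical log axis) in each of the 5 libraries, 1 symbol per gene. Fhl2 is uppermost in both controls but not in the OSKM-CMs libraries, where Mybpc3 and Ankrd1 lie above it.

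Other proteins of the M-band and of the neighbouring A-band part of titin were mostly lower. Of 12 tested genes of this list, 8 fell, 1 rose and 3 did not pass, beside 14.4% lower and 15.7% higher among all genes tested. The median log2 fold change was -0.84 against 0.02 for all genes. With library totals alone 5 were lower and 3 higher, beside 5.96% lower and 36.5% higher among all genes, and the median was -0.44 against 0.36. Trim63, a ubiquitin ligase bound to titin near the M-band, fell from 96.4 ± 8.23 (SD, n = 2) to 30.3 ± 0.479 (SD, n = 3) scaled RPKM, or -1.64 on the log2 scale (limma adjusted p = 0.000125). Obsl1, an obscurin relative that binds titin and myomesin, fell from 11.02 ± 0.706 to 3.63 ± 0.725 (log2 fold change -1.39, limma adjusted p = 0.00145). Cmya5, a large scaffold protein of muscle, fell by 1.08 on the log2 scale and Ckm, the muscle creatine kinase found at the M-band, also by 1.08. Titin itself fell by 0.61 (limma adjusted p = 0.0119) but did not pass with library totals alone (-0.19, limma adjusted p = 0.256). The gene of this list that rose was Sqstm1, an autophagy adaptor, at 0.58 (limma adjusted p = 0.028); it and titin were named after their values were seen.

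**Figure D5:**
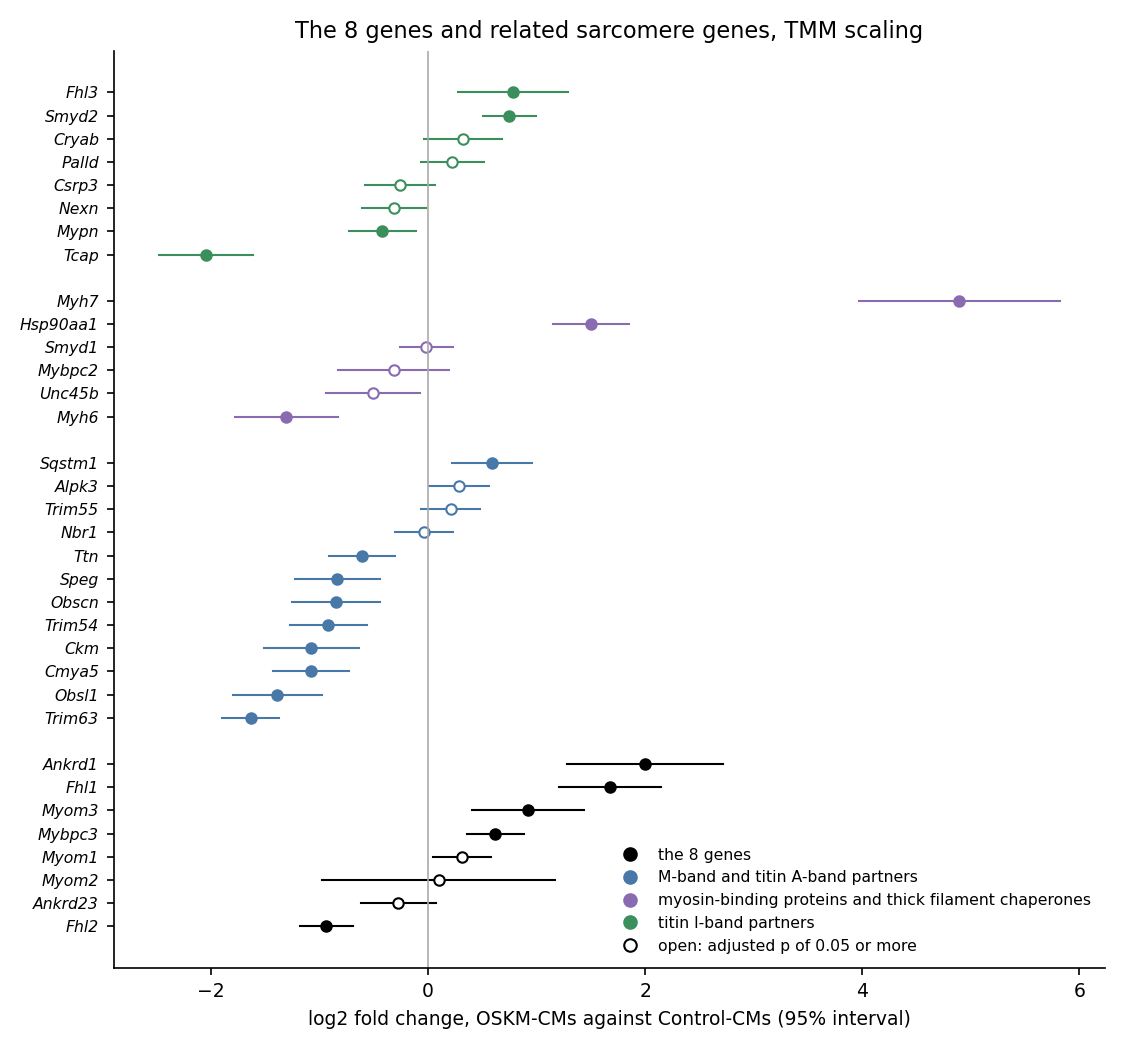
Log2 fold change with 95% interval (horizontal axis) of the 8 genes and of 3 lists of related sarcomere genes, coloured by list, with open symbols for genes that did not pass. The 8 M-band and A-band partners that fell lie between -1.64 and -0.61, and the partner Sqstm1 lies at 0.58. Alpk3, Trim55 and Nbr1 have open symbols. Of the 8 genes, 4 lie between 0.62 and 2.00, Fhl2 lies at -0.94, and Myom1, Myom2 and Ankrd23 have open symbols.

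Thick filament partners moved both ways. Of 6 tested genes in the list of myosin-binding proteins and thick filament chaperones, 2 rose (Myh7 and Hsp90aa1), 1 fell (Myh6) and 3 did not pass. Of all genes tested, 15.7% rose and 14.4% fell. The median log2 fold change of the list was -0.17. Hsp90aa1, a cytosolic chaperone that takes part in myosin folding, rose from 88.7 ± 17.5 (SD, n = 2) to 251 ± 25.8 (SD, n = 3) scaled RPKM (limma adjusted p = 0.00057). Mybpc2, the fast skeletal relative of Mybpc3, had 9.37 ± 1.21 scaled RPKM (SD, n = 2) in controls against 7.46 ± 1.95 (SD, n = 3) in OSKM-CMs (limma adjusted p = 0.313). The skeletal and atrial relatives Mybpc1, Mybph and Mybphl were not analysed here.

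The called partners of titin's I-band part were evenly split, as were called genes over the whole data set, of which 52.3% were higher. Of 8 tested, 2 rose, 2 fell and 4 did not pass, beside 15.7% higher and 14.4% lower among all genes tested. The median log2 fold change was -0.02 (4 higher and 1 lower with library totals alone). Tcap, which caps titin at the Z-disc, fell from 1067 ± 44.7 (SD, n = 2) to 262 ± 63.0 (SD, n = 3) scaled RPKM, or -2.05 on the log2 scale (limma adjusted p = 0.000418). Mypn, myopalladin, which binds Ankrd1, fell by 0.42 (limma adjusted p = 0.0466) but not with library totals alone (-0.02). Smyd2, a methyltransferase found at the titin N2A region, rose by 0.75 (limma adjusted p = 0.00209), and Fhl3 also rose, on 11 to 33 reads per library.

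Among the relatives of the ankyrin repeat and FHL proteins, 3 were tested and all were called, beside 30.1% of all genes tested. Fhl3, the gene also counted among the I-band partners, rose from 2.60 ± 0.698 (SD, n = 2) to 5.22 ± 1.19 (SD, n = 3) scaled RPKM (limma adjusted p = 0.0311), in the direction of Fhl1. It rested on few reads, 11 and 16 in Control-CMs replicates 3 and 5 and 33, 21 and 27 in OSKM-CMs replicates 1, 2 and 3. Lmcd1, another LIM domain protein, rose by 0.45 (limma adjusted p = 0.0323). Crip2, a cysteine-rich LIM protein, fell by 0.44 (limma adjusted p = 0.0148), but with library totals alone its value was -0.02 and did not pass. Fhl4 and Fhl5 were not analysed here.

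The genes whose pattern over the 5 libraries lay closest to Ankrd1 and Fhl1 were sought among 10893 other tested genes, by the root-mean-square difference of log2 values after each gene's mean was subtracted. For Ankrd1 these were Csrp1, a LIM protein of smooth muscle, at a difference of 0.143, Mthfd2, a mitochondrial folate enzyme, at 0.155 and Enpp3, an ectonucleotidase, at 0.176. Csrp1 went from 9.02 ± 2.17 (SD, n = 2) to 38.9 ± 8.68 (SD, n = 3) scaled RPKM. For Fhl1 they were Shisa4 at 0.0408, Shroom3, an actin-binding protein, at 0.0892 and Ctps, a cytidine triphosphate synthase, at 0.0898. Ctps went from 20.3 ± 1.802 (SD, n = 2) to 65.7 ± 15.3 (SD, n = 3) scaled RPKM. Mthfd2, Enpp3 and Shisa4 had 3 to 8 reads per control library. Their mean levels rose 7.99-fold, 7.24-fold and 6.62-fold, against 4.14-fold for Ankrd1 and 3.34-fold for Fhl1. Adding 1 before the log understates changes at such low levels, so their closeness depends on that step. The 5 libraries share 2 groups, so the root-mean-square differences are given as a description.

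In the authors' deposited table the log2 fold changes of the 8 genes were 2.04 for Ankrd1, 1.73 for Fhl1, 0.62 for Mybpc3, 0.31 for Myom1, 0.20 for Myom2, -0.27 for Ankrd23 and -0.94 for Fhl2, beside 1.77 for Myom3. Its FDR for Myom1 was 0.0519, close to the threshold of 0.05 applied here.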

How the data were processed

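RNA of isolated mouse cardiomyocytes was sequenced from 5 libraries. Per the submitters' processing notes, CASAVA 1.8.2, FastQC, Trimmomatic, STAR 2.5.3, HTSeq and build mm9 were used; the annotation and strand setting are not given in the sources used here. The authors deposited an RPKM value per gene and library (the unit was inferred from the values), and, per the file headers, a log2 fold change, an average log2 abundance, a likelihood-ratio score, a p-value and an FDR. Values of all 12446 genes came out as whole reads within 0.0001 reads. For 440 genes a common factor was taken from the authors' abundance. Gene lengths were whole within 0.02 bases for 99.9% of genes at the library totals used. TMM factors from these reads (30% of log ratios and 5% of abundances trimmed) rescaled RPKM. Genes with a mean of at least 1 were kept, and their log2 values, after adding 1 to the scaled RPKM, entered a linear model in limma 3.58.1 (R 4.3.3) with trend and robust options, followed by Benjamini-Hochberg adjustment, 2-sided. Recovery and fit were tested on simulated data. The simulated libraries had no difference in mitochondrial share and were fitted without rescaling, so the fit under TMM was not tested. Ratios were compared with exact permutation tests. The 8 genes and all lists were chosen with earlier results of these data known. From each related list all genes could be named where at most 4 were called, otherwise the 4 largest called changes; for likeness, the 3 closest genes to the 2 members with the largest changes. Motifs were counted in RefSeq promoter windows (GRCm38.p6), whose build differs from mm9, so no coordinate of the study was compared with them. Alternatives were other pseudocounts, filters, scalings, voom, plain empirical Bayes and leaving out each library.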

Additional observations from a re-analysis of the deposited data

How the results depend on the processing

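Ankrd1, Fhl1, Mybpc3 and Fhl2 kept their direction and passed in all 14 alternatives, with log2 fold changes from 1.72 to 2.42, 1.49 to 2.08, 0.56 to 1.04 and -0.98 to -0.52. Myom1 did not pass in 10 of 14 and passed with library totals alone (0.73), with totals without mitochondrial genes (0.52), with voom (0.31) and without OSKM-CMs replicate 2 (0.37); leaving out 1 library gave 0.26 to 0.37. Myom2, 0.10 with all libraries and -0.25 to 0.47 when 1 was left out, turned negative without Control-CMs replicate 3 (-0.06) and without OSKM-CMs replicate 1 (-0.25), and Ankrd23 turned positive with library totals alone (0.15). Myom3 was lost in 3 of 5 fits that left out a library (0.80 to 1.06 over all 5). It ranged from 0.33 (5 added before the log) to 1.76 (voom) over its 13 alternatives, with 1.65 when 0.1 was added, and fell below the filter of at least 5. The Myom1 to Myom2 ratio turned without OSKM-CMs replicate 2 (-0.0923 on the log2 scale, against 0.22; -0.0923 to 0.52 when 1 library was left out). Counts over all genes were 1715 higher and 1565 lower. They were 3985 and 650 with library totals alone and 2594 and 1028 with totals without mitochondrial genes. Leaving out 1 library gave 1143 (without OSKM-CMs replicate 3) to 1534 higher and 964 (without Control-CMs replicate 5) to 1509 lower. With library totals alone the M-band list had 3 higher and 5 lower, the I-band list 4 and 1, and the ankyrin repeat and FHL relatives 0 lower. Where a control is left out, the lone control is assumed to vary like the other libraries. The cause of these shifts was not tested. No paired analysis was possible because a single number, replicate 3, occurs in both groups. With 2 controls, exact tests cannot go below 0.1, and Myom3 rests on 8 to 45 reads per library.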
